A study of Mus musculus with 6 samples.

Results

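The transcript levels of 49 genes of double-strand break repair and the Fanconi anaemia pathway were compared between hnRNPL-deficient and WT activated B cells. The genes were chosen by name from knowledge of these pathways, without a threshold on the values, out of 55421 genes in the expression table. The 49 fall into 6 groups by role: 5 checkpoint kinases and partners, 4 proteins that signal from the chromatin beside a break, 8 nucleases and helicases of end resection, 12 BRCA proteins and strand exchange factors, 8 end joining factors and 12 Fanconi anaemia proteins. hnRNPL is an RNA-binding protein that controls splicing and other steps of mRNA processing. Splenic B cells from 3 WT and 3 hnRNPL-deficient mice were cultured with LPS at 5 µg/ml and IL-4 at 5 ng/ml, and RNA was taken after 24 h. Both genotypes carried CD21-cre and the Rosa mT/mG reporter on a C57BL6/J background, and the deficient mice were also homozygous for the floxed Hnrnpl allele (F/F). Mice were male or female and older than 6 weeks. CD21-cre acts mainly in mature B cells, and cells were sorted for GFP, which the reporter turns on where Cre has acted. Thus the controls share the Cre and the sort, and the groups differ in the floxed allele.

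Double-strand breaks arise in activated B cells from replication and from class switch recombination, the exchange of antibody constant regions that LPS and IL-4 together induce. ATM and ATR, kinases activated by breaks and by stalled forks, signal through CHK2 and CHK1 and mark the flanking chromatin. A break is then either rejoined by the Ku, DNA-PKcs and ligase IV machinery of classical end joining or resected by MRE11-RAD50-NBS1, CtIP, EXO1 and DNA2. Resected ends are repaired by homologous recombination, in which the BRCA proteins take part, or by polymerase theta. The Fanconi anaemia proteins, a core ubiquitin ligase complex and its substrates FANCD2 and FANCI, act at DNA crosslinks and stalled forks. Many of these genes are transcribed mostly in S phase, when a sister chromatid is available as template.

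Libraries held 40395186 to 75180749 reads on genes. Values are given as normalized counts, that is, reads per gene divided by a size factor of the library, in the order of libraries 1, 2 and 3 of each group. Hnrnpl itself fell to 6.74% of WT, with 24371, 25579.7 and 24174 normalized counts in WT and 2178, 1519 and 1297 in hnRNPL-deficient libraries (log2 difference -3.93, SE 0.17, adjusted p = 2.2e-05 by limma). All 5 B cell markers were abundant in each library, and their summed level was 243541 to 316811 in WT and 244036 to 290955 in hnRNPL-deficient libraries. Of 8 T cell, 4 NK cell, 7 myeloid, 5 erythroid and 5 plasma cell markers, 2, 0, 3, 2 and 5 averaged at least 10 normalized counts and were tested. Those past an adjusted p of 0.1 by limma were Adgre1 and Hbb-bt, which were higher, and Jchain, which was lower. The summed level was 605 to 741 in WT and 1662 to 1808 in hnRNPL-deficient libraries for the myeloid list and 17.6 to 38.3 against 55.0 to 84.8 for the erythroid list. The corresponding ranges were 913 to 1039 against 662 to 906 for the T cell list, 0 to 5.80 against 1.37 to 7.21 for the NK cell list and 33957 to 39571 against 33296 to 36361 for the plasma cell list. Lck made up most of the T cell list, at 892 to 1006 in WT and 615 to 855 in hnRNPL-deficient libraries. Trac was at 13.9 to 18.2 against 21.6 to 32.9 and Cd5 at 1.16 to 8.41 against 8.22 to 22.2. Cd3e, Cd3d, Cd3g, Cd4 and Cd8a did not exceed 6.92 in any library. In the myeloid list Adgre1 was at 236 to 315 in WT and 1217 to 1369 in hnRNPL-deficient libraries. Cd68, the other abundant gene of that list, was at 345 to 410 against 422 to 424 (adjusted p = 0.40 by limma). The higher myeloid sum thus came mostly from Adgre1. Itgam reached 18.6 and Csf1r 6.85, and Lyz2, Cd14 and Mpo did not exceed 2.74. No NK cell gene exceeded 6.31, and Ncr1 was at 0 throughout. The part of the markers that differed in the results on the members was not tested. Xist was on in 1 library of each group (WT 3 and hnRNPL-deficient 2), so that sex was balanced.

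All 49 genes passed the filter of a mean of at least 10 normalized counts over the 6 libraries. Of these, 40 were lower in the mean of the hnRNPL-deficient libraries, as were 52.7% of all genes tested. The number of members was 18 when libraries were instead scaled to S-phase genes, which shifts all genes of a library alike. The share of all genes lower on that scale is not given. That scaling moved the median log2 difference of all genes tested from -0.03 to 0.43. Testing was by limma on log2(normalized count + 1), and a gene was called at a Benjamini-Hochberg adjusted p under 0.1 over 17640 genes and a fold change of at least 1.5. By this rule 10 members were lower, against 4.08% of all genes tested, and 0 were higher, against 7.28%. The 10 were Atm, Chek1, Rad50, Exo1, Bard1, Brca2, Xrcc3, Rad54l, Fancd2 and Fanci. At the same adjusted p and any fold, 17 members were lower (background 7.97%) and 2 were higher (background 10.0%), and 30 did not pass. The 17 lower ones are the 10 with Nbn, Brca1, Rad54b, Xrcc5, Polq, Fanca and Fancb, and the higher pair is Rad52 and Slx4. The highest hnRNPL-deficient value lay below the lowest WT value for 22 members (background 16.3%), and the opposite held for 3 (background 17.7%). The median log2 difference of the 49 was -0.28, and that of all genes tested was -0.03. In bulk RNA, fewer cells that express a gene and less of its RNA per cell cannot be told apart. Totals per gene also do not show changes of splicing within a gene. The authors reported altered splicing in these cells for repair genes that include Prkdc, Atm, Shld2 and Mre11 (Mre11a here). Splicing was not tested here.

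**Figure D1:**
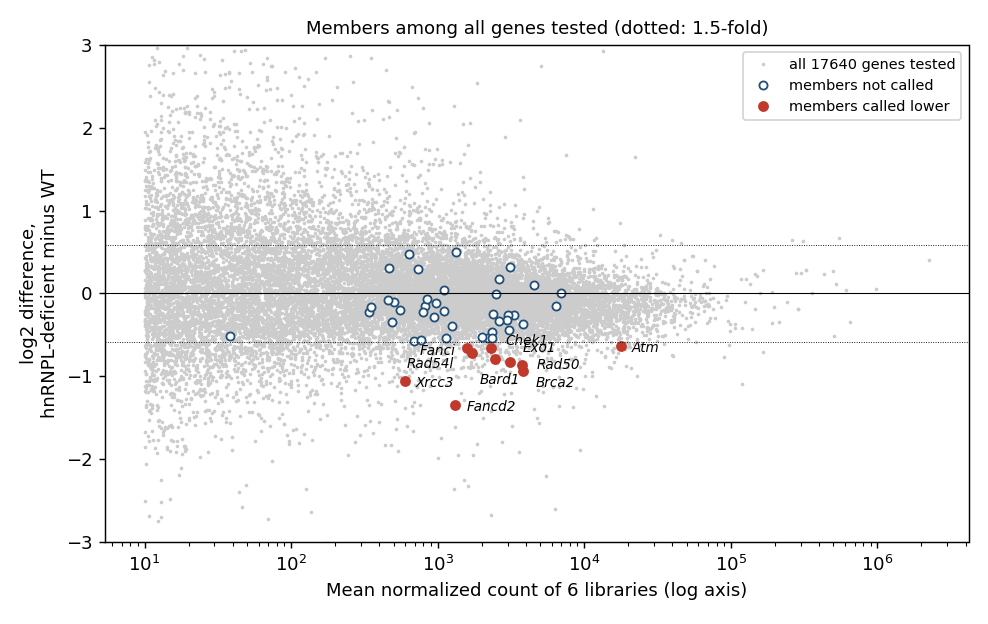
Log2 difference between hnRNPL-deficient and WT libraries (y axis) against the mean normalized count of 6 libraries (log x axis) for 17640 genes tested, with the 49 members in colour; 56 genes lie beyond the y axis. The 10 members called lower lie between -1.35 and -0.64, and none of the others passes both the test and the dotted 1.5-fold lines.

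Among the 5 checkpoint genes the kinases Atm and Chek1 were lower, and Atr, Atrip and Chek2 did not pass the test. Atm (chromosome 9, 53439149 to 53536740, minus strand), the break-activated kinase, had 24896, 20544 and 19850.2 normalized counts in WT and 13923, 13547 and 14234 in hnRNPL-deficient libraries. The deficient values lay within a narrow band below all 3 WT values, and their mean was 63.9% of WT (13902 ± 344 against 21764 ± 2735, SD, n = 3; log2 difference -0.64, SE 0.11, adjusted p = 0.0088 by limma). Per kilobase of exon, its WT level was the second of the members after H2afx. Chek1 (chromosome 9, 36708482 to 36727065, minus strand) encodes CHK1, the effector kinase of ATR. It had 3498, 2671 and 2355 normalized counts in WT and 2113, 1685 and 1559.8 in hnRNPL-deficient libraries, and its groups did not overlap (62.9% of WT, log2 difference -0.66, SE 0.17, adjusted p = 0.042 by limma). The log2 differences of Atr, its partner Atrip and Chek2 were -0.15, 0.05 and -0.15, with 95% intervals of -0.40 to 0.10, -0.27 to 0.37 and -0.45 to 0.15. Thus a decrease of the size seen for Atm lay outside the interval of each.

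None of the 4 genes that signal from the chromatin beside a break passed the test. Of all genes tested 7.97% passed lower and 10.0% higher, so that little can be read from this count. Mdc1, the adaptor that binds phosphorylated H2AX, had 4091, 4665 and 4406 normalized counts in WT and 4603, 5023 and 4516 in hnRNPL-deficient libraries (log2 difference 0.10, 95% interval -0.12 to 0.33). H2afx, which encodes the histone variant H2AX itself, had 3646, 3433 and 3166 normalized counts in WT and 3255, 3334 and 1462 in hnRNPL-deficient libraries. Its first and second deficient libraries were within the WT range, and the third was less than either by over 2-fold. The log2 difference of H2afx was -0.44 with all libraries (adjusted p = 0.36 by limma) and -0.05 without hnRNPL-deficient 3. The ubiquitin ligases Rnf8 and Rnf168 differed by 0.31 and -0.26, with adjusted p of 0.45 and 0.20.

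In the resection group, of the 3 subunits of the MRE11-RAD50-NBS1 complex, which binds and begins to process the ends, Rad50 was called, Nbn passed the test below 1.5-fold and Mre11a did not pass. Rad50 (chromosome 11, 53649519 to 53707319, minus strand), the ATPase that bridges the ends, had 5116, 4819 and 4565 normalized counts in WT and 2861, 2779 and 2348 in hnRNPL-deficient libraries. Every deficient library lay far below every WT library, at 55.1% of the WT mean (log2 difference -0.86, SE 0.11, adjusted p = 0.0027 by limma). Nbn, the subunit that recruits ATM, had 2877, 2789 and 2459 normalized counts in WT and 2001, 2131 and 1782 in hnRNPL-deficient libraries and fell to 72.8% of WT (log2 difference -0.46, SE 0.11, adjusted p = 0.036). Mre11a, the nuclease, was at 83.7% of WT with no overlap between the groups, and its adjusted p was 0.11 (log2 difference -0.26, 95% interval -0.46 to -0.05). The interval of Rad50, -1.11 to -0.61, did not overlap that of Mre11a. No test of the difference between genes was run.

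Exo1 (chromosome 1, 175880581 to 175913489, plus strand), a 5′ to 3′ exonuclease of long-range resection, had 5026, 3541 and 3415 normalized counts in WT and 2651, 2196 and 1893 in hnRNPL-deficient libraries. It was called at 56.3% of WT (log2 difference -0.82, SE 0.18, adjusted p = 0.022 by limma), and WT 1 stood above the other WT libraries. Blm, the helicase mutated in Bloom syndrome and the gene of this group with the most reads, had 5148, 3869 and 3966 normalized counts in WT and 3679, 3259 and 3092 in hnRNPL-deficient libraries. Its groups did not overlap, but its adjusted p was 0.12 (log2 difference -0.36). Dna2, the alternative long-range nuclease, and Wrn, a related helicase, were at 77.3% and 83.5% of WT and did not pass. Rbbp8, which encodes the resection factor CtIP, was the 1 member of this group with a higher mean (113% of WT, adjusted p = 0.31 by limma).

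**Figure D2:**
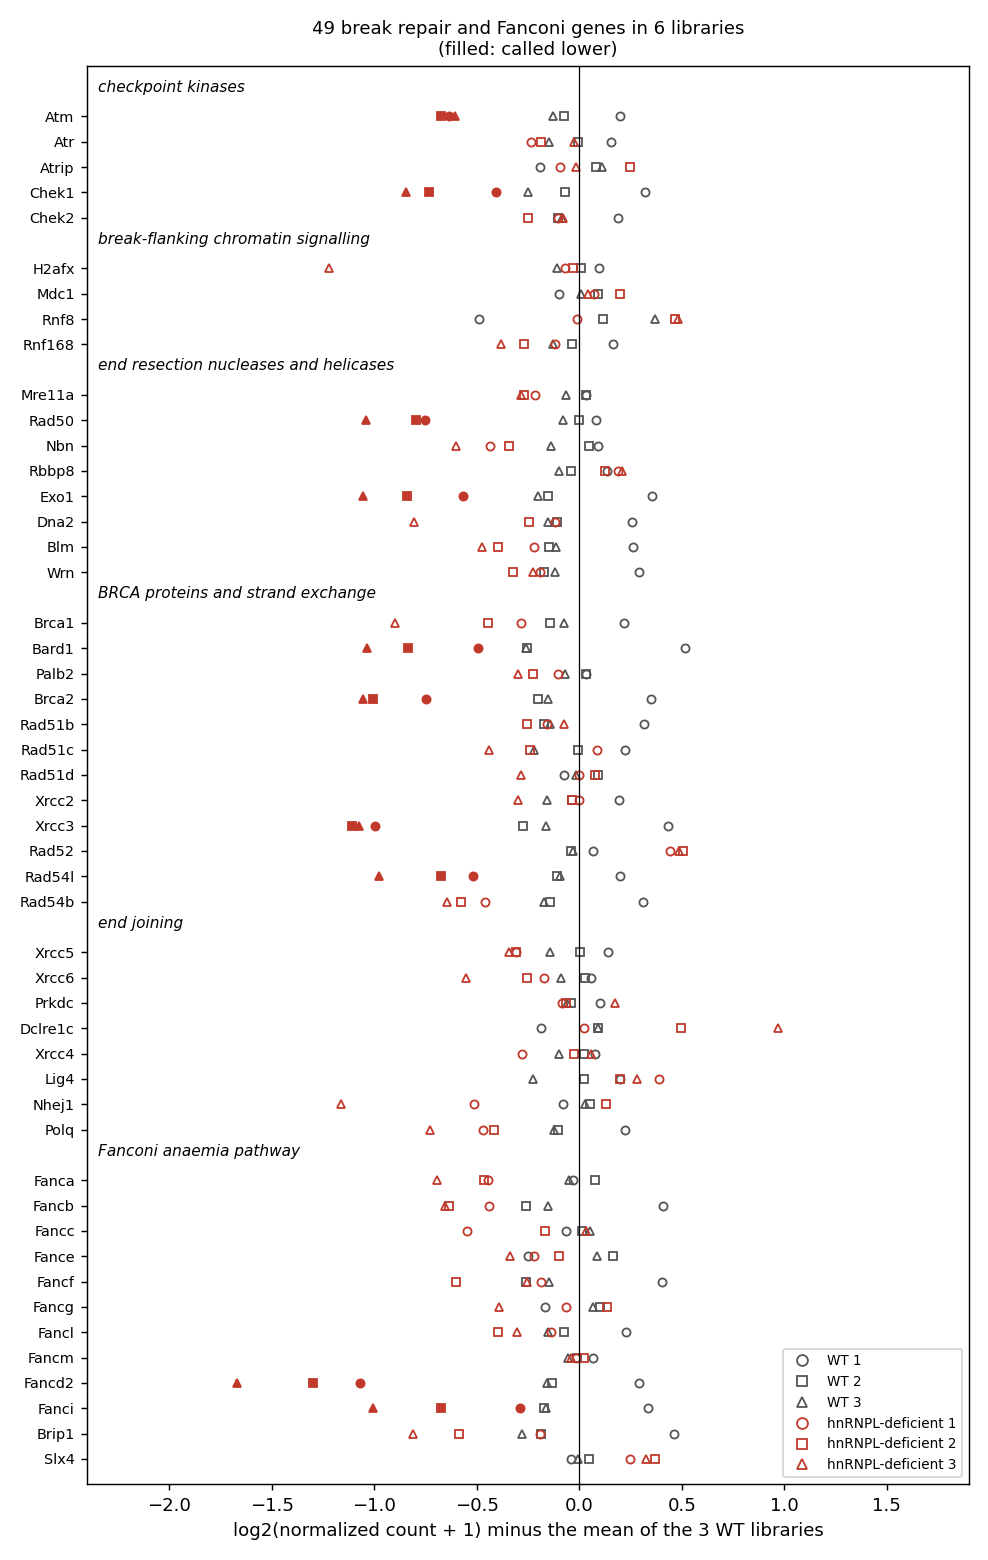
Log2(normalized count + 1) of each of the 49 members in each of the 6 libraries, relative to the mean of the 3 WT libraries (x axis), ordered by role; grey symbols are WT, red symbols hnRNPL-deficient, and filled symbols mark the 10 members called lower. WT 1 was the highest WT library for 37 members and hnRNPL-deficient 3 the lowest deficient library for 31.

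The group of BRCA proteins and strand exchange factors, with 12 of the 49 members, held 4 of the 10 called genes. Of all genes tested 4.08% were called lower. Brca2 (chromosome 5, 150522630 to 150570329, plus strand), a central mediator of homologous recombination, had 6286, 4297 and 4441 normalized counts in WT and 2939, 2458 and 2371 in hnRNPL-deficient libraries. The deficient mean was 51.7% of WT (2589.6 ± 306 against 5008 ± 1109, SD, n = 3; log2 difference -0.94, SE 0.16, adjusted p = 0.0091 by limma). Bard1 (chromosome 1, 71027498 to 71103146, minus strand), the obligate partner of BRCA1 in its ubiquitin ligase, had 4316, 2526 and 2519 normalized counts in WT and 2144, 1691 and 1472 in hnRNPL-deficient libraries and was at 56.7% of WT (log2 difference -0.79, SE 0.23, adjusted p = 0.058). WT 1 was above WT 2 and 3 by more than 1.5-fold, so that the size of this decrease depended on that library: without it the log2 difference was -0.53 and the gene was no longer called, as also without hnRNPL-deficient 2 or 3. Brca1, with 2993, 2330.1 and 2443 normalized counts in WT and 2117, 1890.1 and 1382 in hnRNPL-deficient libraries, passed the test below 1.5-fold (69.4% of WT, log2 difference -0.54, SE 0.17, adjusted p = 0.081). Palb2, which links BRCA1 to BRCA2, was at 86.6% of WT and did not pass (adjusted p = 0.27 by limma).

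Of Rad51b, Rad51c, Rad51d, Xrcc2 and Xrcc3, related proteins that act in recombination complexes, Xrcc3 was called and the 4 others were not. Xrcc3 (chromosome 12, 111803192 to 111813873, minus strand) had 1077, 659 and 712 normalized counts in WT and 398, 369 and 378 in hnRNPL-deficient libraries. The deficient libraries were nearly alike, at 382 ± 15.3 (SD, n = 3), and all were below the lowest WT library (46.8% of WT, log2 difference -1.06, SE 0.19, adjusted p = 0.012 by limma). Rad51c, the partner of XRCC3, was at 87.5% of WT, and Rad51b, Rad51d and Xrcc2 were at 88.4%, 95.7% and 92.5%. The log2 differences of these 4 were -0.20 to -0.07 and their adjusted p 0.52 to 0.78. The interval of Xrcc3 was -1.50 to -0.62, and those of Rad51b, Rad51c, Rad51d and Xrcc2 were -0.57 to 0.24, -0.61 to 0.22, -0.38 to 0.24 and -0.43 to 0.21.

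Rad54l (chromosome 4, 116094264 to 116123690, minus strand), a motor protein of strand exchange, had 2423, 1956 and 1978 normalized counts in WT and 1471, 1322 and 1069 in hnRNPL-deficient libraries and was called at 60.8% of WT (log2 difference -0.72, SE 0.15, adjusted p = 0.019 by limma). Its relative Rad54b had 1131, 826 and 809 normalized counts in WT and 663, 611 and 583 in hnRNPL-deficient libraries and passed the test just below 1.5-fold (log2 difference -0.56, SE 0.16, adjusted p = 0.056). It shares its locus and strand with Fsbp, and reads in the shared part cannot be assigned to one or the other. Rad52, a single-strand annealing factor, went the other way, with 561, 519 and 524 normalized counts in WT and 728, 759 and 748 in hnRNPL-deficient libraries. Every deficient library was above every WT library, at 139% of WT on average, which passed the test below 1.5-fold (log2 difference 0.48, SE 0.12, adjusted p = 0.037 by limma).

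The upstream sequences of called members that hold CCAAT or TTTCCCGC on either strand are shown. CCAAT boxes and E2F sites are common in promoters of genes that are active in S phase. They are from RefSeq promoters of GRCm38.p6, which hold 250 bases before and 50 after the start of a gene and matched 38 of the 49 members, 7 of them called. Each sequence runs 5′ to 3′ in the direction of the gene, and capitals mark CCAAT or its complement ATTGG in Xrcc3, Atm and Rad54l, and TTTCCCGC or its complement GCGGGAAA in Bard1 and Brca2.
Xrcc3 (chr12:111813880-111814129, minus strand): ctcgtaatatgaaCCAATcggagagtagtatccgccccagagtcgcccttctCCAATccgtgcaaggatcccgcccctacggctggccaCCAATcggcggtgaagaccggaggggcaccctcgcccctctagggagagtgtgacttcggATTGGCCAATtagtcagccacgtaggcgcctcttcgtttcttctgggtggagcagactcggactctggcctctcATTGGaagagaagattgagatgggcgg
Atm (chr9:53536806-53536862, minus strand): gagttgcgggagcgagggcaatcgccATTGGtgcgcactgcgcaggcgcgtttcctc
Rad54l (chr4:116123710-116123766, minus strand): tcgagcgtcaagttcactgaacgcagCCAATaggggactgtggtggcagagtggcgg
Bard1 (chr1:71103148-71103207, minus strand): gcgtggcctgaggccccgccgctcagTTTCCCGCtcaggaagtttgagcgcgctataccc
Brca2 (chr5:150522427-150522486, plus strand): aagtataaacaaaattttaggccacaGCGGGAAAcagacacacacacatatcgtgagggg

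The 250 bases before Xrcc3 held 6 CCAAT letters on either strand, of which a pair abut as ATTGGCCAAT. On both strands CCAAT was present in 23 of the 38 member promoters (60.5%) and in 43.6% of the 9785 promoters in the table that belong to genes tested. It was in 3 of the 7 called and 20 of the 31 other members. The E2F-type letters TTTGGCGC were in 0 member promoters (1.19% of those of tested genes) and TTTCGCGC in 1, that of Rad51c (0.79%). Further E2F-type forms were searched after these counts were seen: TTTCCCGC was in 7 (2.45% of tested genes), GGCGGGAA, which overlaps it by 7 letters on the other strand, in 8 (4.82%) and TTTGCCGC in 0 (0.63%). At least 1 of the 5 forms was in 13 of 38 members (34.2%), against 8.33% of promoters of tested genes, and in 3 of 7 called members. Called members with a promoter that is not shown are Chek1, which held GGCGGGAA, and Fanci, which held none of these forms and no CCAAT. The letters TTTGAA and TTCGAA, the CHR element of genes expressed late in the cell cycle, were in 4 (14.9% of tested genes) and 1 (2.53%). These are matches of letters in a window, not sites shown to be bound.

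**Figure D3:**
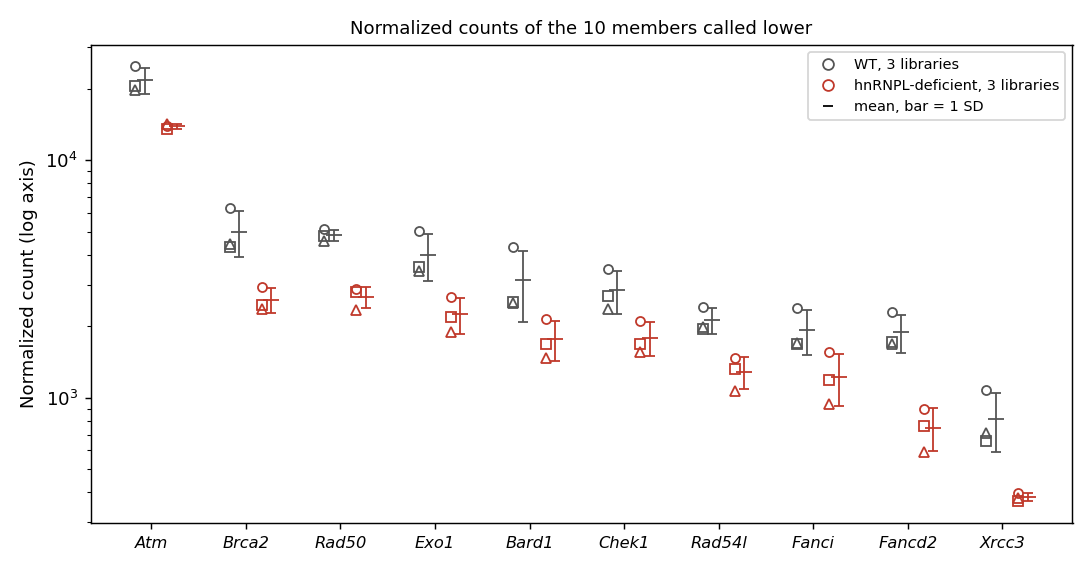
Normalized counts (log y axis) of the 10 members called lower in the 3 WT (grey) and 3 hnRNPL-deficient (red) libraries, with mean and SD beside the points. For each gene the highest hnRNPL-deficient value lies below the lowest WT value, and WT 1 is the highest of the WT libraries.

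None of the 8 end joining genes was called. Of all genes tested 4.08% were called lower and 7.28% higher, so that little can be read from this count. The Ku subunits Xrcc5 (Ku80) and Xrcc6 (Ku70), which encircle the broken end, were at 79.9% and 80.2% of WT, and Xrcc5 passed the test. Xrcc5 had 3652, 3327 and 3005 normalized counts in WT and 2678, 2681 and 2615 in hnRNPL-deficient libraries (log2 difference -0.32, SE 0.10, adjusted p = 0.084 by limma). The groups did not overlap for Xrcc6 either, whose adjusted p was 0.13. Polq, the polymerase of theta-mediated end joining, had 3223, 2571 and 2529.7 normalized counts in WT and 1994, 2064 and 1667 in hnRNPL-deficient libraries and passed the test below 1.5-fold (68.8% of WT, log2 difference -0.54, SE 0.13, adjusted p = 0.038 by limma). Prkdc, the catalytic subunit of DNA-PK and the gene of this group with the most reads, had 7438, 6745 and 6658 normalized counts in WT and 6549.7, 6639 and 7828 in hnRNPL-deficient libraries. Its log2 difference was 0.01, with a 95% interval of -0.23 to 0.25 that leaves out a decrease of 1.5-fold.

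The ligase Lig4 and its cofactor Xrcc4 differed by 0.29 and -0.08 on the log2 scale (adjusted p = 0.23 and 0.75 by limma). Nhej1, the member with the fewest reads, at 41.8, 45.8 and 45.1 normalized counts in WT and 30.7, 48.5 and 19.2 in hnRNPL-deficient libraries, was too variable among deficient libraries to be read (95% interval -1.35 to 0.32). Dclre1c, which encodes the hairpin-opening nuclease Artemis, had 950.5, 1153 and 1152 normalized counts in WT and 1098, 1527 and 2116 in hnRNPL-deficient libraries, and is named here after its values were seen. Its mean was 146% of WT, but hnRNPL-deficient 1 lay inside the WT range and the difference did not pass (log2 difference 0.50, SE 0.22, adjusted p = 0.19). Without hnRNPL-deficient 1 it was called higher (log2 difference 0.73).

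In the Fanconi anaemia group the substrates of the pathway, Fancd2 and Fanci, were called. Fancd2 (chromosome 6, 113531682 to 113597017, plus strand) had the largest decrease of the 49, with 2294, 1711 and 1680.1 normalized counts in WT and 894, 761 and 588 in hnRNPL-deficient libraries. The deficient mean was 39.5% of WT (748 ± 154 against 1895 ± 346, SD, n = 3; log2 difference -1.35, SE 0.19, adjusted p = 0.0037 by limma). Fanci (chromosome 7, 79391929 to 79450264, plus strand), the partner of FANCD2 on DNA, had 2398, 1684 and 1694 normalized counts in WT and 1552, 1187 and 943 in hnRNPL-deficient libraries and was at 63.7% of WT (log2 difference -0.66, SE 0.21, adjusted p = 0.077). The deficient libraries were spread, and the highest of them was just below the lowest WT library. The call of Fanci was held when hnRNPL-deficient 1 was left out and was lost on leaving out any other library, with an adjusted p of up to 0.18.

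The 8 genes of the core complex and its anchor were lower in the mean by 0.01 to 0.58 on the log2 scale, and 2 passed the test, both below 1.5-fold. Fanca, a subunit of the core complex, had 1314, 1418 and 1299 normalized counts in WT and 986, 974 and 829 in hnRNPL-deficient libraries, with little spread within groups (69.2% of WT, log2 difference -0.53, SE 0.12, adjusted p = 0.025 by limma). Fancb, an X-linked subunit beside the catalytic one, had 1086, 682 and 736 normalized counts in WT and 601, 526 and 519 in hnRNPL-deficient libraries (65.7% of WT, log2 difference -0.58, SE 0.19, adjusted p = 0.087). The catalytic ligase Fancl and the subunits Fancc, Fance, Fancf and Fancg were at 77.6% to 93.6% of WT with adjusted p of 0.24 to 0.73. Fancm, the translocase that anchors the complex to DNA, was at 99.2% of WT with a 95% interval of -0.22 to 0.20. Brip1, a helicase that binds BRCA1, was at 68.4% of WT with overlapping groups (adjusted p = 0.16 by limma). Slx4, the scaffold of structure-specific nucleases, was the 1 gene of this group with a higher mean, with 2719, 2891 and 2786 normalized counts in WT and 3326, 3616 and 3507 in hnRNPL-deficient libraries. It passed the test at 124% of WT (log2 difference 0.32, SE 0.09, adjusted p = 0.060 by limma).

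Per kilobase of annotated exon, the mean WT level of the members ran from 35.8 normalized counts for Rnf8 to 2468 for H2afx. The 5 highest were H2afx, Atm, Xrcc5, Nbn and Rad50, at 2468, 2105, 1303, 1069 and 899 per kilobase. In hnRNPL-deficient libraries these 5 were at 1939, 1345, 1040.2, 778 and 495 per kilobase. Fancd2 and its partner Fanci were at 239 and 333 per kilobase in WT and at 94.2 and 213 in hnRNPL-deficient cells. These levels use all exons of a gene in the annotation, and transcripts in use may be shorter. Another annotated gene overlaps 11 members on the same strand, among the called ones Exo1, Bard1 and Brca2, each with a predicted gene, and reads in shared parts cannot be assigned with certainty.

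Of 56 further genes of the same pathways, 55 were in the table and tested, and 2 were called lower and 0 higher (background 4.08% and 7.28%). Their median log2 difference was -0.07. The called ones were Rmi2, a subunit of the BLM dissolvasome (log2 difference -0.69, SE 0.12, adjusted p = 0.0093 by limma), and Rfwd3, a ubiquitin ligase that acts on RPA (log2 difference -0.67, SE 0.13, adjusted p = 0.017). Their number was 1 without WT 1 or without hnRNPL-deficient 3 and 7 without hnRNPL-deficient 1. At any fold, 8 passed lower (background 7.97%) and 2 higher (background 10.0%). The higher pair was Shld2, a shieldin subunit that limits resection (log2 difference 0.55, SE 0.10, adjusted p = 0.013), and the nuclease Fan1 (log2 difference 0.42, SE 0.13, adjusted p = 0.075).

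Genes of DNA replication were lower as well. Of 30 S-phase genes 6 were called lower and 0 higher (background 4.08% and 7.28%). At any fold 11 passed, all lower (background 7.97%). All 30 had a lower mean, as did 52.7% of all genes tested, and the median log2 difference of the list was -0.49. The called ones were the licensing factors Cdc6 (-0.85) and Orc1 (-0.80), the helicase subunits Gins1 (-0.71), Gins2 (-0.64) and Mcm5 (-0.59), and Uhrf1 (-0.62), a cofactor of maintenance methylation, with adjusted p of 0.019 to 0.071 by limma. The number called was 3 without WT 1 or without hnRNPL-deficient 3, and 15 without hnRNPL-deficient 1. Of 20 G2/M genes 19 had a lower mean (median -0.45, background 52.7%), but none passed an adjusted p of 0.1 by limma. An unadjusted p under 0.05 by limma was reached by 4 of the 20 and by 4830 of the 17640 genes tested, so that little can be read from the 4. Among 10 genes of the E2F family, the factors that drive S-phase transcription, E2f1 (log2 difference -0.81, SE 0.21, adjusted p = 0.046) and E2f3 (log2 difference -0.73, SE 0.12, adjusted p = 0.0086) were called lower and the partner Tfdp2 higher (log2 difference 1.05, SE 0.13, adjusted p = 0.0029). Of 19 genes tested that are targets of p53, the stress-activated tumour suppressor, 13 were called higher (background 7.28%) and 0 lower.

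The libraries differed in these lists within groups as well. The median deviation of the members from the WT mean of each gene was 0.16, -0.04 and -0.11 in WT 1, 2 and 3 and -0.19, -0.25 and -0.38 in hnRNPL-deficient 1, 2 and 3, on the log2 scale. For the S-phase list it was 0.25, -0.09 and -0.12 and -0.23, -0.36 and -0.85, and for the G2/M list 0.49, -0.27 and -0.23 and -0.06, -0.40 and -0.92. In each list WT 1 was highest and hnRNPL-deficient 3 lowest. Over all genes tested the medians lay within 0.018 of 0. Without WT 1 the number of members called lower was 6, and without hnRNPL-deficient 3 it was 7. The 6 called with each library left out in turn were Rad50, Exo1, Brca2, Xrcc3, Rad54l and Fancd2. At any fold, 10 members passed without hnRNPL-deficient 2 and 11 without hnRNPL-deficient 3. For fits with a library left out, also for the other lists, shares of all genes are not given. These counts therefore have no background.

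**Figure D4:**
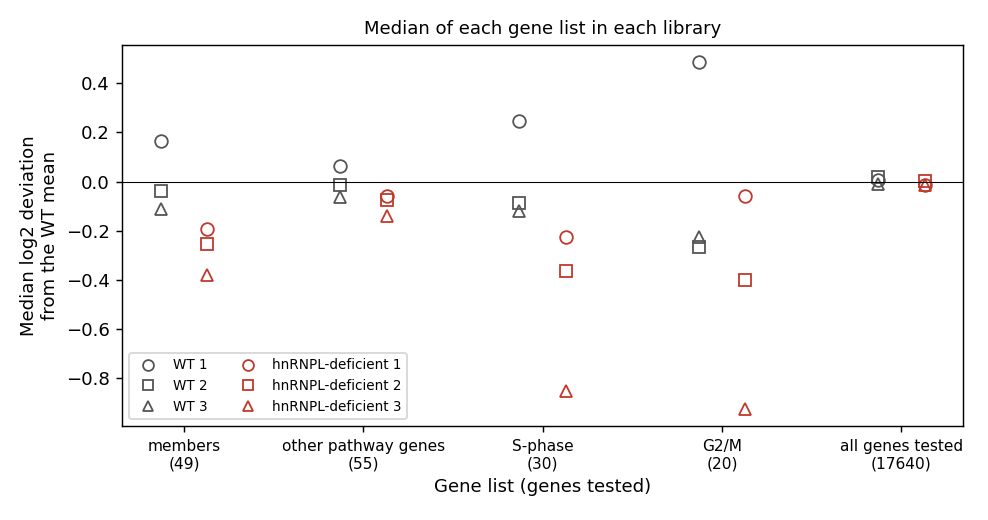
Median log2 deviation from the WT mean (y axis) of the members, the other pathway genes, the S-phase and G2/M lists and all genes tested (x axis) in each WT (grey) and hnRNPL-deficient (red) library. WT 1 is the highest library for each of the 4 lists, and hnRNPL-deficient 3 is the lowest, at -0.85 for the S-phase list and -0.38 for the members.

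How the members stood relative to the S-phase genes was asked after seeing these values, by scaling each library to the geometric mean of its 30 S-phase genes. This moved the median of all genes tested from -0.03 to 0.43, and that of the members from -0.28 to 0.18. It shifts all genes of a library alike. On this scale 2 members were lower (background 0.850%): Fancd2, at -0.89 (SE 0.20, adjusted p = 0.0081 by limma), and Xrcc3, at -0.60 (SE 0.24, adjusted p = 0.089). These 2 thus fell by more than the mean of the S-phase genes. Brca2 passed the test below 1.5-fold (-0.48, adjusted p = 0.079). The relative values of Rad50 (-0.41), Exo1 (-0.36), Bard1 (-0.33), Rad54l (-0.27), Chek1 (-0.20), Fanci (-0.20) and Atm (-0.18) did not pass. Higher on this scale were 5 (background 24.4%): Dclre1c, Rad52, Slx4, Lig4 and Rbbp8. The part of the cell cycle in the lower values of the members was not tested.

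The members' start sites offer a further comparison within the same libraries. For 16 members a protein-coding gene that passed the filter starts within 1000 bases on the opposite strand. Of the members in these pairs 4 were called lower. Of the neighbours 0 were called lower and 2 higher, where 4.08% and 7.28% of all genes tested were, so that little can be read from the first count. Fancd2 starts 30 bases from Emc3, a subunit of a membrane insertase, which had 5106, 3771 and 4060.0 normalized counts in WT and 5190.2, 4302 and 5255 in hnRNPL-deficient libraries (log2 difference 0.20, SE 0.14, adjusted p = 0.40 by limma). Thus Emc3 overlapped between the groups where Fancd2 did not. The neighbours of Xrcc3 (Zfyve21), Rad54l (Pomgnt1) and Atm (Npat, a histone gene activator) differed by -0.09, -0.26 and -0.28, with adjusted p of 0.83, 0.36 and 0.24. Zfyve21 and Pomgnt1 overlapped between the groups. Npat, like Atm, was lower without overlap, with 9194, 6867 and 6736 normalized counts in WT and 6704, 5611 and 6336 in hnRNPL-deficient libraries. The neighbour of Brca1, the autophagy receptor Nbr1, was called higher (0.64, SE 0.10, adjusted p = 0.0072) where Brca1 was lower. That of Wrn, Purg, was also called higher (0.78, adjusted p = 0.055). Mcm4, the neighbour of Prkdc and a subunit of the replicative helicase, was at -0.48 without overlap between the groups (mean 20359.5 in WT and 14737 in hnRNPL-deficient libraries, adjusted p = 0.11), where Prkdc was at 0.01. The median log2 difference of the 16 neighbours was 0.07, and that of their members -0.25.

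**Figure D5:**
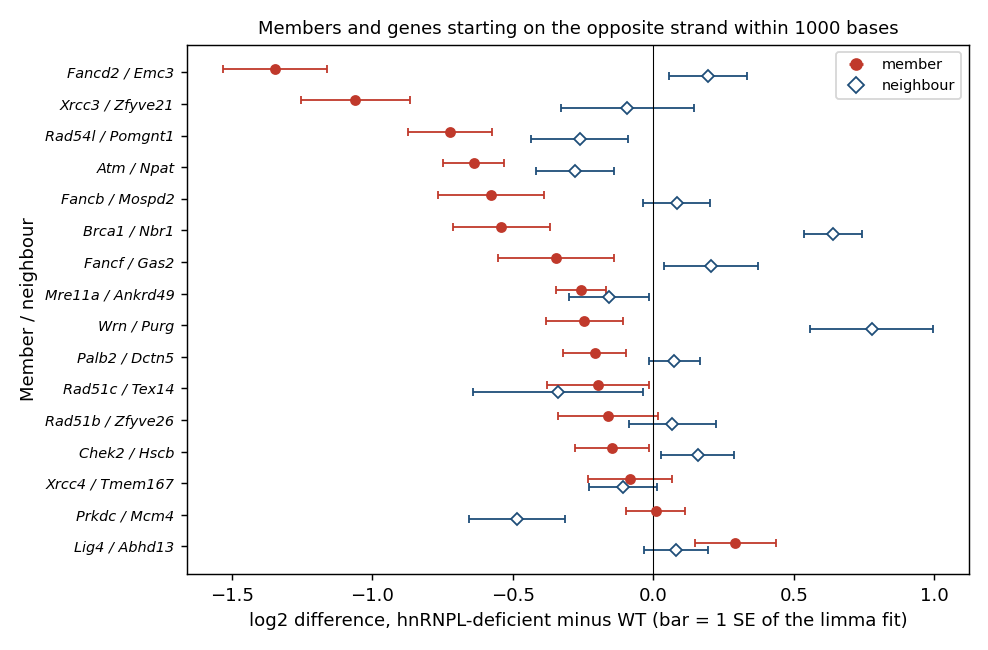
Log2 difference between hnRNPL-deficient and WT libraries (x axis) for 16 members (red circles) and the genes that start on the opposite strand within 1000 bases (blue diamonds), 1 pair per row; bars are 1 SE of the limma fit. Fancd2 and Emc3 are farthest apart, at -1.35 and 0.20.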

How the data were processed

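RNA was sequenced from activated B cells of the spleen, with 3 mice per genotype (poly(A) selection, KAPA RNA HyperPrep). Groups were taken from the submitters' genotype labels. Per the submitters' processing notes, the authors trimmed reads with fastp 0.23.1, aligned them to mm10 with STAR 2.7.9a, counted them per gene with featureCounts and divided the counts by DESeq2 1.38.2 size factors. The deposited values are thus a normalized signal per gene and library. The deposited table also holds the authors' own log2 fold changes with standard errors, a test statistic (a score), p-values, adjusted p-values and a mean, which were not used.

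Every value was a whole multiple of the value of 1 read (tolerance 0.1 read) in 100% of cases, which gave the reads per library. The step of hnRNPL-deficient 2 is too close to 1 for the recovery to be checked automatically, and count tests (edgeR 4.0.16 quasi-likelihood, DESeq2 1.42.0) were therefore run on the other 5 libraries only, as alternatives.

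The main test was limma 3.58.1 with a mean-variance trend on log2(normalized count + 1), in R 4.3.3. Genes averaging under 10 were left out. Adding 1 means that fold changes of low genes are understated. Standard errors and 95% intervals are those of the fit. P-values were adjusted by Benjamini-Hochberg over all genes tested, and the code was tested on simulated data. With 3 against 3 an exact permutation test cannot go below 0.1, and none was used. Members, gene lists and letters searched in promoters were chosen with earlier results of these data known. All members are accounted for by role. Values of every library are given for members past an adjusted p of 0.1 and for the member of each role with the most reads and with the largest change, and for any other gene as stated. 1 further pathway gene is not reported here. Coordinates are from GENCODE vM21 (GRCm38, the build of mm10); the authors counted on another release of the same build. Libraries with the same number were not paired in the main fit. The correlation of their deviations from the group means was 0.43, 0.32 and 0.066 for numbers 1, 2 and 3. For libraries with different numbers it was -0.46 to 0.31. Each hnRNPL-deficient library deviated most like the WT library of its number. Whether libraries with the same number share a batch was not tested.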

Additional observations from a re-analysis of the deposited data

How the results depend on the processing

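All 10 calls among the members kept their direction under 17 other filters, scalings, fits and sets of libraries. Rad50, Exo1, Brca2, Xrcc3, Rad54l and Fancd2 were called in every one. Atm kept its adjusted p below 0.1 in all of them and slipped below 1.5-fold with scaling to equal totals (-0.58), with quantile normalization (-0.49) and without WT 1 (-0.54). Chek1, Bard1 and Fanci missed the adjusted p without the mean-variance trend (0.102, 0.13 and 0.15) and in part of the fits that leave out a library, Bard1 and Fanci also with edgeR and Fanci with DESeq2. Without WT 1, Chek1 (-0.50) and Bard1 (-0.53) kept it and were below 1.5-fold. Of the 39 other members, Brca1, Rad54b, Polq, Fancb and Dclre1c (the last higher) were called in at least 1 of these, and Atrip, Rad51d, Prkdc, Xrcc4, Fancg and Fancm changed sign in at least 1, never past the threshold.

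At least 2-fold was reached by 2 members, 0 other pathway genes and 0 S-phase genes by limma. At any fold 12 members passed without the trend, and with quantile normalization 1 other pathway gene was called. Leaving out 1 library at a time gave 6 to 13 members called and 10 to 17 past the adjusted p at any fold, 1 to 7 other pathway genes called and 3 to 15 S-phase genes called. Libraries of the 2 groups share only a number in their labels. With a replicate block 10 members were called and 27 passed at any fold. Each hnRNPL-deficient library deviated most like the WT library of its number, whereas WT 3 deviated most like hnRNPL-deficient 2. On the reads of 5 libraries edgeR called 9 members and DESeq2 10. For the thresholds, fits and sets of libraries named so far in this paragraph, shares of all genes are not given. These counts therefore have no background, and a rise or fall in them cannot be read as particular to the members. Scaling to the S-phase list, chosen after seeing the data, shifts all genes of a library alike. It moved the member median from -0.28 to 0.18 and that of all genes from -0.03 to 0.43. On this scale 7 members were called (5 higher) and 9 passed at any fold (6 higher), the latter without a share of all genes. Of the 55 other pathway genes 11 were called, all higher. Of all genes tested 24.4% were called higher on this scale and 0.850% lower, so that little can be read from the higher counts. The adjusted p of Hnrnpl stayed below 0.1 throughout.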
